A study of Mus musculus with 12 samples.

Results

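The genes of 10 inhibitors of MAP kinase signaling were followed in W-20 cells, a murine bone marrow stromal cell (BMSC) line (labelled W-20-17), after exposure to parathyroid hormone (PTH). They were the dual-specificity phosphatase genes *Dusp1*, *Dusp4*, *Dusp5*, *Dusp6* and *Dusp10*, the Sprouty genes *Spry1*, *Spry2* and *Spry4*, and the Sprouty-related genes *Spred1* and *Spred2*. They were chosen by name, and each was matched to 1 of the 56980 genes of the count matrix through its Ensembl identifier. Bulk RNA-Seq had been performed on 12 libraries, 3 in each of 4 groups: WT cells given vehicle (PBS), WT cells given 50 nM PTH, Y428F cells given vehicle and Y428F cells given 50 nM PTH, each for 2 hours. Y428F names a substitution of tyrosine by phenylalanine in YAP, the transcriptional coactivator that Hippo signaling restrains. The methods describe Flag-tagged YAP plasmids carrying this substitution, alone or on a backbone that also carries S381A, and positive clones picked with puromycin. The library titles read Y428F, while the study's text calls the line whose transcriptome was compared with WT cells YAP S381A/Y428F in some places and YAP Y428F in others, so S381A, which replaces serine by alanine, may be present as well. Neither a line with an unmutated plasmid nor one with S381A alone was among the libraries, so the Y428F substitution, S381A where present, the plasmid, the selection and differences between clones cannot be told apart. The genotype label of the Y428F libraries reads WT, and these groups were taken from the library titles.

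These genes encode brakes on the MAP kinase cascades. Growth factor receptors act through RAS, RAF and MEK to phosphorylate ERK, and ERK in turn raises the transcription of several of its own inhibitors, which makes a negative feedback loop. DUSP proteins remove the activating phosphates from MAP kinases: DUSP6 acts on ERK in the cytoplasm, DUSP5 on ERK in the nucleus, DUSP1 and DUSP4 are nuclear and also act on p38 and JNK, and DUSP10 prefers p38 and JNK. Sprouty and SPRED proteins act further up, between the receptor and RAF, and SPRED proteins recruit the RAS-inactivating protein neurofibromin. In cells of the osteoblast lineage PTH signals mainly through a G protein-coupled receptor, cAMP and protein kinase A, and through phospholipase C.

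Library totals ranged from 17127897 to 19057319 expected counts. Levels are given in CPM (counts per 1000000, with library sizes scaled by TMM factors), and p-values come from the quasi-likelihood F-test of edgeR, adjusted by Benjamini-Hochberg over 17691 genes. A gene was called at an adjusted p under 0.05. Nothing in the labels says that the 3 libraries of a group came from separate cultures, so these p-values measure only the spread between the libraries. The mean level of *Yap1* was 189 ± 7.20 CPM in WT cells with vehicle, 240.4 ± 8.75 with PTH, 147 ± 4.64 in Y428F cells with vehicle and 171 ± 2.67 with PTH (SD, n = 3). Whether reads of the plasmid counted toward *Yap1* is not given in the sources used here. The receptor gene *Pth1r* had 0 to 8 counts in WT libraries and 3 to 10 in Y428F libraries.

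Both lines carried stromal transcripts. Of 8 stromal markers, *Col1a2* was the most abundant in all libraries and *Thy1* was at 0 in all libraries, and their summed level was 24965 to 28686 CPM in WT libraries and 15199 to 19165 CPM in Y428F libraries, with 6 of the 7 tested markers called lower in Y428F cells with vehicle, where 22.7% of all genes were. Markers of other cell types were far lower but differed between the lines. The 3 endothelial markers summed to 0.349 to 1.07 CPM in WT and 5.73 to 9.06 CPM in Y428F libraries, with *Cdh5* the most abundant, and the 4 leukocyte markers to 1.11 to 2.21 and 5.76 to 7.71 CPM, with *Ptprc*, *Lyz2* or *Cd68* the most abundant and the macrophage marker *Adgre1* at 0 in 11 libraries. The endothelial marker *Kdr* was at 0 in all WT libraries and *Epcam* and *Adipoq* were at 0 in all libraries. The 3 epithelial markers (*Epcam*, *Cdh1*, *Krt8*) summed to 0.246 to 0.967 and 2.89 to 4.79 CPM and the 2 erythroid ones to 0.707 to 1.69 and 4.09 to 5.05 CPM, and the 2 adipocyte ones did not pass 0.349 CPM in any library. These values move with the cell line, and their part in the line differences was not tested.

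The first PTH library of WT cells stood apart in genes that the other WT libraries lacked. It held 14 genes with at least 10 counts that were at 0 in the other 5 WT libraries, against 0 to 8 such genes in the other 11 libraries compared with their own line. They included *Igfbp3* with 19 counts and *Dusp9*, the phosphatase gene related to *Dusp6*, with 17. *Gpc1* had 35 counts there and 1299 to 1568 counts in Y428F libraries. The Y-linked gene *Ddx3y*, with 13 counts, was at 0 in all Y428F libraries. The PTH responses in WT cells were therefore also fitted without this library. Across genes, the lowest chi-square per degree of freedom of any pair of replicates, 2.94, was that of this library and the second PTH library. The highest, 15.2, was that of the first and second vehicle libraries of WT cells.

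With vehicle, *Dusp1* was the most abundant of the 10 transcripts per unit length and *Dusp4* the least abundant in WT cells. Levels between genes were compared as CPM per kb of the canonical transcript. *Dusp1* was at 44.5 ± 2.52 CPM per kb, followed by *Spry1* at 14.1 ± 0.864, *Spred2* at 12.3 ± 0.910, *Spred1* at 9.39 ± 0.619, *Dusp6* at 4.34 ± 0.458 and *Dusp5* at 2.56 ± 0.220 (SD, n = 3). *Dusp10*, *Spry2* and *Spry4* followed at 1.83 ± 0.211, 1.75 ± 0.185 and 1.54 ± 0.203 CPM per kb, and neighbours among these 3 overlapped in their libraries, whereas all other neighbours in the order were separate. *Dusp4* came last at 0.726 ± 0.219. In Y428F cells with vehicle *Spry1* stood seventh, at 1.51 ± 0.0892 CPM per kb, and *Spry4* last, at 0.0761 ± 0.0528, while *Dusp1* was again first, at 25.3 ± 0.733. With PTH, *Dusp5* moved from the sixth to the fifth place in WT cells and from the fifth to the fourth in Y428F cells. In both lines its libraries with PTH then lay above those of *Dusp6*.

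**Figure D1:**
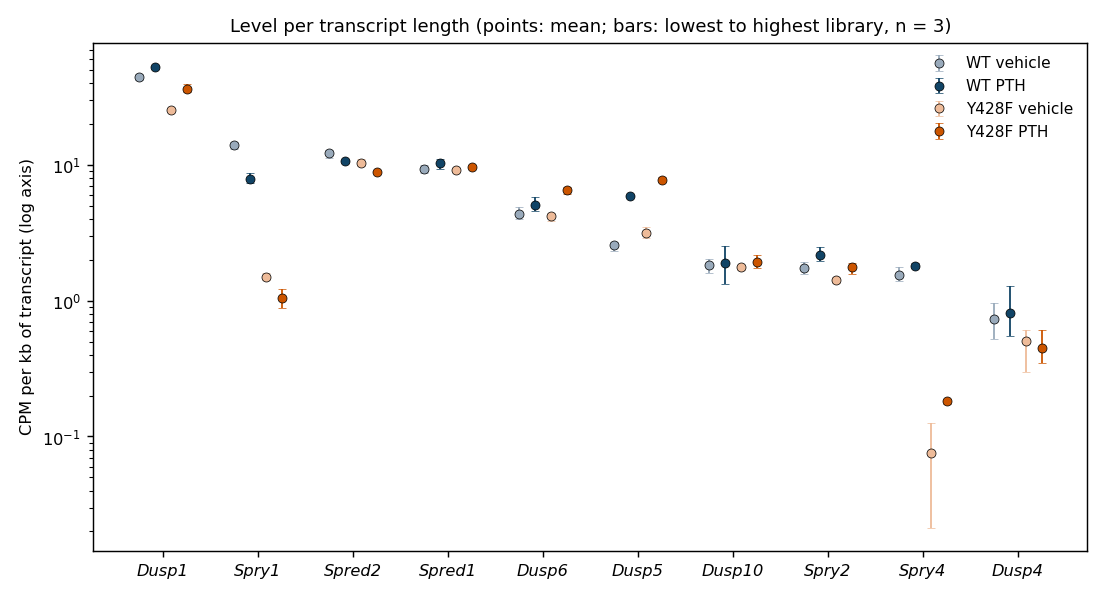
Level of each gene in CPM per kb of canonical transcript on a log axis, by group, with genes ordered by their mean in WT cells with vehicle. Points are means over 3 libraries and bars run from the lowest to the highest library. *Spry1* and *Spry4* are the genes in which the Y428F groups lie far below the WT groups, at 1.51 against 14.1 and 0.0761 against 1.54 CPM per kb with vehicle.

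PTH raised *Dusp5* and *Dusp1* and lowered *Spry1* in WT cells. These 3 of the 10 genes were called, where 13.4% of all genes tested were called, 1312 (7.42%) higher and 1063 (6.01%) lower (956 and 1608 when library totals alone set the scale). Without the first PTH library of WT cells, 2 of the 10 were called, *Dusp5* (log2 fold change 1.19) and *Spry1* (-0.80), among 1591 genes in all. *Dusp1* was then at 0.23, *Dusp6* at 0.13, *Spry2* at 0.20, *Spry4* at 0.19, *Spred1* at 0.08 and *Spred2* at -0.21. The genes given below from the pathway lists as called for PTH in WT cells were also called without that library, with adjusted p of at most 0.048 (*Spred3*). In Y428F cells 6 of the 10 genes were called, where the share of all genes was 12.4%, with 1170 (6.61%) higher and 1022 (5.78%) lower (888 and 1445 by library totals alone). *Dusp1*, *Dusp5*, *Dusp6* and *Spry4* were higher and *Spry1* and *Spred2* were lower. The count of 6 fell to 3 without the second vehicle library of Y428F cells, and to 3 without either the first or the second PTH library of Y428F cells. The median log2 fold change of the 10 genes was 0.19 in WT cells and 0.23 in Y428F cells, against -0.02 and -0.01 over all genes tested.

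**Figure D2:**
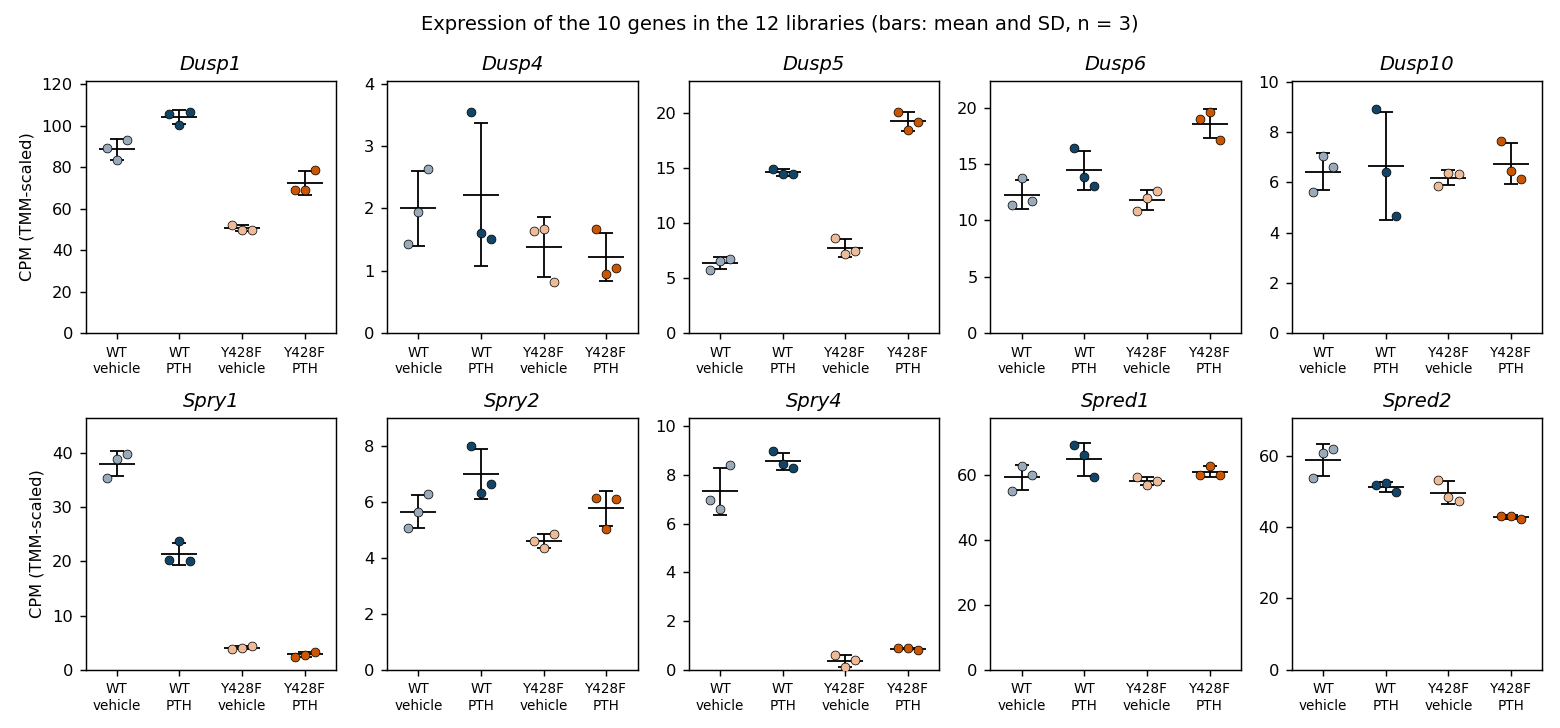
CPM of each of the 10 genes in each of the 12 libraries, from 0, with a separate axis for each gene. Points are libraries and bars are the mean and SD of 3. The PTH libraries lie above the vehicle libraries for *Dusp5* in both lines (14.4 to 15.0 against 5.71 to 6.71 CPM in WT cells), and below them for *Spry1* (19.97 to 23.7 against 35.4 to 39.8 CPM in WT cells).

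*Dusp5*, whose product inactivates nuclear ERK, showed the largest response of the 10 genes in WT cells. It lies on chromosome 19, from 53517532 to 53530862, on the plus strand (GRCm39, GENCODE vM39). In WT cells it was at 5.71, 6.60 and 6.71 CPM with vehicle and at 15.0, 14.5 and 14.4 CPM with PTH. In Y428F cells it was at 8.65, 7.18 and 7.43 CPM with vehicle and at 20.1, 18.5 and 19.2 CPM with PTH. In each line the lowest PTH library lay above the highest vehicle library. The log2 fold change was 1.21 (SE 0.11, adjusted p = 1.12e-07), a 2.31-fold rise, in WT cells and 1.31 (SE 0.10, adjusted p = 3.12e-08), a 2.49-fold rise, in Y428F cells. The range over fits that each left out 1 library was 1.15 to 1.25 in WT cells and 1.26 to 1.40 in Y428F cells.

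*Dusp1* encodes an immediate-early phosphatase and lies on chromosome 17, from 26724564 to 26781102 on the minus strand. WT libraries were at 89.2, 83.3 and 93.2 CPM with vehicle and at 105.5, 100.5 and 106.6 CPM with PTH. Y428F libraries were at 52.1, 49.4 and 49.7 CPM with vehicle and at 69.1, 68.9 and 78.8 CPM with PTH. In neither line did the groups overlap, and all Y428F libraries with PTH were below all WT libraries with vehicle. The log2 fold change was 0.23 (SE 0.06, adjusted p = 0.0151) in WT cells and 0.52 (SE 0.06, adjusted p = 1.58e-05) in Y428F cells. The call in WT cells was lost without the second vehicle library of WT cells (adjusted p = 0.0758) and without the first PTH library (adjusted p = 0.0601). The annotated span of *Dusp1* overlaps that of *Ergic1* on the opposite strand, which had up to 6049 counts, but its canonical transcript does not, and whether counting used the strand is not given in the sources used here.

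The 250 bases before the canonical start of each gene were searched on both strands for 5 motifs. The promoters of the 3 genes called in WT cells are shown, since these genes rose or fell in both lines. Capitals mark TGACG, the core of the cAMP response element TGACGTCA, and GGAATG, a site of TEAD factors, the DNA-binding partners of YAP, on either strand. The full element contains the core on both strands. Sequences are from GRCm39, 5′ to 3′ on the strand of the gene, at chr19:53517282-53517531 (plus strand) for *Dusp5*, chr17:26727494-26727743 (minus strand) for *Dusp1* and chr3:37693647-37693896 (plus strand) for *Spry1*.
Dusp5: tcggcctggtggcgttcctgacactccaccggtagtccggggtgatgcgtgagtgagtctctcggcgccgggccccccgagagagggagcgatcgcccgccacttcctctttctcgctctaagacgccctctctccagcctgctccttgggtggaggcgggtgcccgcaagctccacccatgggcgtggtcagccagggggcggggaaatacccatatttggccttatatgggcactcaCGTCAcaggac
Dusp1: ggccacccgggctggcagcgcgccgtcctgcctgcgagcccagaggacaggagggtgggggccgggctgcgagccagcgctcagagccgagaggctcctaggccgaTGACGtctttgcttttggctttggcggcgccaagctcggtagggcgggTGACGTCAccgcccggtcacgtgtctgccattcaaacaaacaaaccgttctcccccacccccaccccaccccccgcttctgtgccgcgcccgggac
Spry1: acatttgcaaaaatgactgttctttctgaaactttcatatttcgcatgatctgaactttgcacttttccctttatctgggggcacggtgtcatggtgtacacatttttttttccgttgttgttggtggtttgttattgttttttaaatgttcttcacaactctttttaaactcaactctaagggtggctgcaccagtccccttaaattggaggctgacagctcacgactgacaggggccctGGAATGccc

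The full element was found in the window of *Dusp1* alone among the 10 genes, starting 96 bases before the start, and in 1.69% of the windows of 21770 protein-coding genes. The core was found in *Dusp1* (3 matches, 2 of them within the full element), *Dusp4*, *Dusp5* and *Spry2*, that is in 4 of the 10 genes, and in 18.0% of all windows. In *Dusp5* it began 11 bases before the start. GGAATG was found in *Spry1*, beginning 9 bases before the start, and in 12.1% of all windows. The AP-1 site TGANTCA and the ETS site CCGGAAG, which 6.17% and 6.89% of all windows held, were found in none of the 10. A match is a run of letters and not a measured binding site.

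*Dusp6*, which encodes the cytoplasmic ERK phosphatase, rose in Y428F cells. It was at 11.4, 13.8 and 11.7 CPM with vehicle and at 16.4, 13.8 and 13.0 CPM with PTH in WT cells, and these groups overlapped. In Y428F cells it was at 10.8, 12.0 and 12.6 CPM with vehicle and at 19.0, 19.6 and 17.1 CPM with PTH, with no overlap. The log2 fold change was 0.65 (SE 0.11, adjusted p = 0.000334) in Y428F cells and 0.23 (SE 0.11, 95% interval 0.00 to 0.47, adjusted p = 0.19) in WT cells. *Dusp4* and *Dusp10*, a nuclear phosphatase gene and the gene of a p38 and JNK phosphatase, were called in neither line. *Dusp4* ranged from 0.819 to 3.54 CPM over the 12 libraries and *Dusp10* from 4.66 to 8.90 CPM. The highest value of both was that of the first PTH library of WT cells. Without that library the log2 fold change in WT cells went from 0.15 to -0.36 for *Dusp4* and from 0.05 to -0.22 for *Dusp10*, with adjusted p = 0.636 and 0.515. It also changed sign without the first vehicle library of WT cells, to -0.03 and -0.03.

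**Figure D3:**
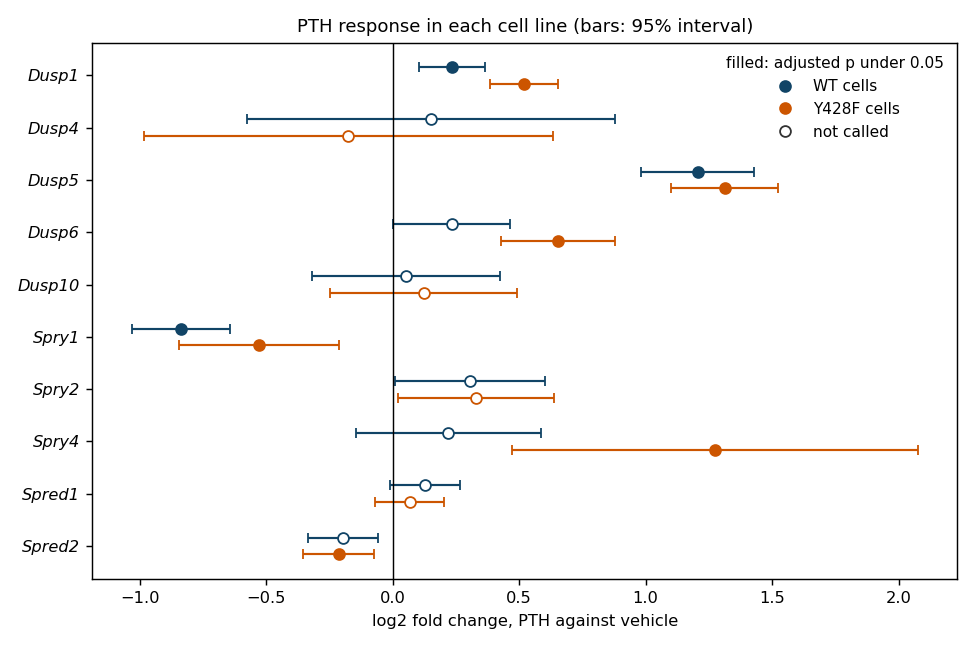
Log2 fold change of each gene with PTH against vehicle, by cell line. Bars are 95% intervals, and filled points had an adjusted p under 0.05. *Dusp5* lies near 1.21 in WT and 1.31 in Y428F cells, and *Spry1* lies below 0 in both lines.

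*Spry1*, which encodes an inhibitor of receptor tyrosine kinase signaling, moved opposite to *Dusp5*. It lies on chromosome 3, from 37693897 to 37698755, on the plus strand. In WT cells it was at 35.4, 39.0 and 39.8 CPM with vehicle and at 20.3, 23.7 and 19.97 CPM with PTH, so that it was 1.79-fold lower (log2 fold change -0.84, SE 0.09, adjusted p = 2.78e-06). In Y428F cells it was at 3.83, 4.04 and 4.31 CPM with vehicle and at 2.38, 2.75 and 3.31 CPM with PTH, and the log2 fold change was -0.53 (SE 0.15, adjusted p = 0.0243). Neither line had an overlap between PTH and vehicle, and the highest Y428F library stayed below the lowest WT library. The call in Y428F cells, which rests on 43 to 80 counts per library, was lost without the second or the third vehicle library (adjusted p = 0.0582 and 0.083), without the first or the second PTH library (adjusted p = 0.112 and 0.061) and in the fit of Y428F libraries alone (adjusted p = 0.0637).

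*Spry4*, a further Sprouty gene on chromosome 18, had few counts in Y428F cells. WT libraries had 132, 116 and 157 counts with vehicle and 152, 137 and 142 with PTH, and the groups overlapped. Y428F libraries had 11, 2 and 7 counts with vehicle and 16, 16 and 15 with PTH, and did not overlap. The log2 fold change was 0.22 (SE 0.17, adjusted p = 0.488) in WT cells and 1.27 (SE 0.38, adjusted p = 0.0307) in Y428F cells. The call was lost without the second vehicle library of Y428F cells, where the log2 fold change was 0.81 (adjusted p = 0.187), without the third (adjusted p = 0.0716), without any 1 of the PTH libraries (adjusted p = 0.0706, 0.0685 and 0.0592) and in the fit of the Y428F libraries alone (adjusted p = 0.107).

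The remaining 3 genes showed small differences. *Spry2* was at 5.08 to 6.28 CPM with vehicle and 6.34 to 8.02 CPM with PTH in WT cells, and at 4.35 to 4.86 and 5.05 to 6.16 CPM in Y428F cells. Its groups did not overlap in either line, as for 26.4% and 30.8% of all genes tested, and its log2 fold changes of 0.31 and 0.33 were not called (adjusted p = 0.183 and 0.172). *Spred2*, a gene of the SPRED family, was at 53.8, 60.9 and 61.9 CPM with vehicle and at 51.9, 52.3 and 49.8 CPM with PTH in WT cells. In Y428F cells it was at 53.3, 48.5 and 47.3 CPM with vehicle and at 43.0, 43.2 and 42.3 CPM with PTH. The PTH libraries were the lower ones in both lines, with log2 fold changes of -0.20 (SE 0.07, adjusted p = 0.0549) in WT cells and -0.21 (SE 0.07, adjusted p = 0.0427) in Y428F cells.

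Neither *Spred2* value was far from the limit. The WT response passed it without the first vehicle library of WT cells (adjusted p = 0.0141), with library totals alone (adjusted p = 0.0115) and where at least 10 counts were required in every library (adjusted p = 0.0263). The Y428F response missed it without the third vehicle library or the first or the second PTH library of WT cells (adjusted p = 0.0536, 0.0646 and 0.0582), without the first or the second vehicle library of Y428F cells (adjusted p = 0.222 and 0.0712) and without any 1 of the PTH libraries of Y428F cells (adjusted p = 0.0823, 0.0728 and 0.119). With the replicate number as a block, its adjusted p in Y428F cells was 0.0506, and with no filter on low counts it was 0.0635. *Spred1*, its paralog, was at 55.2 to 63.0 CPM with vehicle and 59.5 to 69.3 CPM with PTH in WT cells, with a log2 fold change of 0.13 (95% interval -0.01 to 0.27). In Y428F cells it was at 57.0 to 59.6 and 60.0 to 63.0 CPM, with a log2 fold change of 0.07 (95% interval -0.07 to 0.20).

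The PTH responses of the lines were then compared with each other. None of the 10 genes was called in edgeR's test of the difference between the responses, where 0.413% of all genes, 73 of 17691, were called (0.17% higher and 0.243% lower) and 1247 had an unadjusted p under 0.05. Fits that each left out 1 library called 24 to 89 genes, the fewest without the third PTH library of Y428F cells, and none of the 10. DESeq2's Wald test called none of the 10 either, and 123 genes in all. At an unadjusted p under 0.05 the difference was seen for 3 of the 10. It was 0.29 (SE 0.09, unadjusted p = 0.00478, adjusted p = 0.346) for *Dusp1*, 0.42 (SE 0.15, unadjusted p = 0.0135, adjusted p = 0.514) for *Dusp6* and 1.05 (SE 0.43, unadjusted p = 0.0206, adjusted p = 0.585) for *Spry4*, each more positive in Y428F cells. The difference for *Spry4* was 0.58 without the second vehicle library of Y428F cells and 1.62 without the first. The difference for *Dusp5* was 0.11, with a 95% interval from -0.20 to 0.42, and for *Spry1* it was 0.31, with an interval from -0.07 to 0.68. A call of *Dusp6* or *Spry4* in Y428F cells and not in WT cells is therefore not shown to be a difference between the lines.

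The levels of the 10 genes were also compared between the lines. With vehicle 5 of the 10 genes were called between Y428F and WT cells, 1 higher and 4 lower, where 45.1% of all genes were called (22.4% higher and 22.7% lower), so that the share of the 10 was near the background. *Spry4* had a log2 fold change of -4.34 (SE 0.27, adjusted p = 4.75e-11) and was 20.3-fold lower in Y428F cells. *Spry1* had a log2 fold change of -3.22 (SE 0.11, adjusted p = 5.38e-15) and was 9.34-fold lower. For *Dusp1* the log2 fold change was -0.81 (SE 0.06, adjusted p = 1.64e-09) and for *Spred2* -0.24 (SE 0.07, adjusted p = 0.00456). These 4 differences kept their call in each fit that left out 1 library. *Dusp5* was higher in Y428F cells, with a log2 fold change of 0.29 (SE 0.11, adjusted p = 0.0417).

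That call of *Dusp5* was lost without the first or the second vehicle library of WT cells (adjusted p = 0.163 and 0.0604), without the first or the third vehicle library (adjusted p = 0.206 and 0.0548) or the third PTH library of Y428F cells (adjusted p = 0.0531), with DESeq2's Wald test (adjusted p = 0.0739), with no filter on low counts (adjusted p = 0.0878), in the fit of the 6 vehicle libraries alone (adjusted p = 0.0786) and with the replicate number as a block (adjusted p = 0.0549). *Dusp6*, *Dusp10* and *Spred1* differed by -0.05, -0.05 and -0.03 on the log2 scale with vehicle, and their 95% intervals were -0.29 to 0.18, -0.42 to 0.32 and -0.17 to 0.11. With library totals alone these 3 values were slightly above 0. *Dusp4* had a log2 fold change of -0.53 with an interval from -1.29 to 0.23, and *Spry2*, whose groups did not overlap, one of -0.30 (adjusted p = 0.108).

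With PTH in both lines 6 of the 10 genes were called, where 45.7% of all genes were (22.8% higher and 23% lower). *Dusp5* and *Dusp6* were higher in Y428F cells, with log2 fold changes of 0.40 (SE 0.10, adjusted p = 0.00176) and 0.36 (SE 0.11, adjusted p = 0.00792). *Spry4*, *Spry1*, *Dusp1* and *Spred2* were lower, with log2 fold changes of -3.29 (SE 0.23, adjusted p = 2.98e-10), -2.92 (SE 0.12, adjusted p = 1.19e-13), -0.53 (SE 0.06, adjusted p = 5.86e-07) and -0.26 (SE 0.07, adjusted p = 0.00335). *Dusp4* had a log2 fold change of -0.86 (adjusted p = 0.0646), and was called without the second or the third PTH library of WT cells (adjusted p = 0.0422 and 0.0298) or the first PTH library of Y428F cells (adjusted p = 0.0326), and with no filter on low counts (adjusted p = 0.0187). The 2 comparisons of the lines and the 2 PTH responses share their libraries in pairs, so they are not independent of each other.

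**Figure D4:**
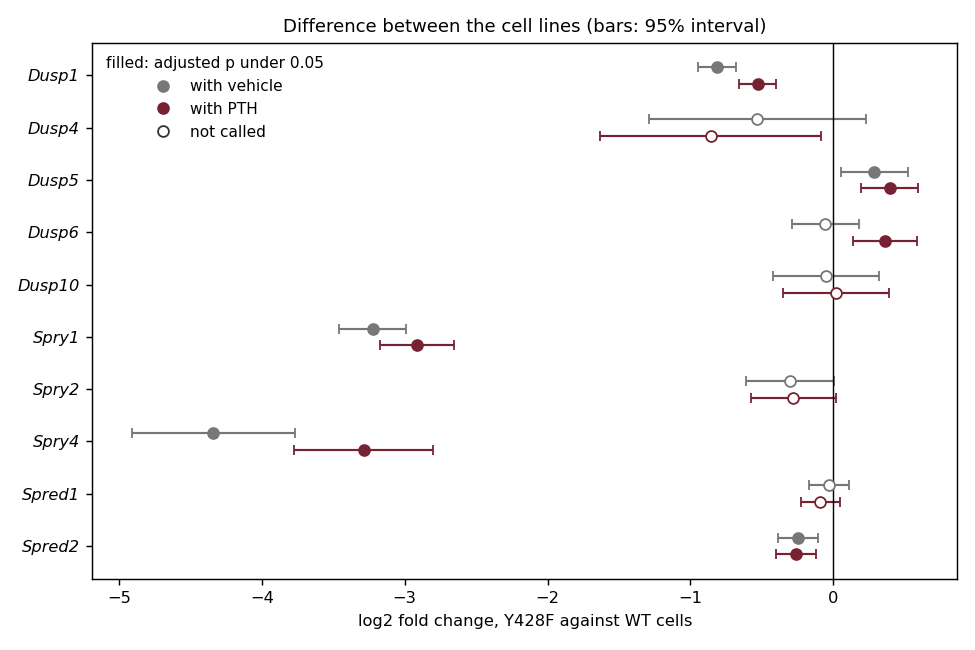
Log2 fold change of each gene in Y428F against WT cells, with vehicle and with PTH. Bars are 95% intervals, and filled points had an adjusted p under 0.05. *Spry1* and *Spry4* lie at -3.22 and -4.34 with vehicle, and the other 8 genes lie between -0.86 and 0.40 in both conditions.

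The nearest relatives of these genes, the phosphatase genes *Dusp7*, *Dusp8*, *Dusp9* and *Dusp16* and *Spred3*, were tested next, while *Dusp2* was under the minimum of 10 counts in total and *Spry3* was not analysed here. None of the 5 was called higher with PTH in either line, where 7.42% and 6.61% of all genes were, and 2 were called lower in WT and 1 in Y428F cells (6.01% and 5.78% of all genes). *Dusp16*, the gene of a phosphatase of JNK and p38, was at 35.0 to 38.8 CPM with vehicle and 39.0 to 41.5 CPM with PTH in Y428F cells, which did not overlap (adjusted p = 0.223). *Dusp9* was at 0 counts in the WT libraries other than the first with PTH and had 2 to 8 counts in Y428F libraries, and it was called higher in WT cells with no filter on low counts (adjusted p = 0.00194) and without the second or the third PTH library of WT cells (adjusted p = 0.031 and 0.0228). *Dusp7*, the gene of another cytoplasmic ERK phosphatase, fell in WT cells from 107 ± 7.77 to 80.9 ± 3.63 CPM (SD, n = 3; log2 fold change -0.40, adjusted p = 0.000261), and was at 51.6 ± 3.52 and 52.2 ± 1.89 CPM in Y428F cells. None of the 5 genes was called for the difference in PTH response between the lines, where 0.413% of all genes were. *Spred3* fell from 16.5 ± 1.53 to 12.7 ± 0.492 CPM in WT cells (log2 fold change -0.38, adjusted p = 0.0173), and from 12.4 ± 0.913 to 7.61 ± 0.738 CPM in Y428F cells (log2 fold change -0.70, adjusted p = 0.000202). The former call was lost without the second or the third vehicle library or the third PTH library of WT cells (adjusted p = 0.0648, 0.0872 and 0.0528). With vehicle all 5 were called between the lines, where 45.1% of all genes were, among them *Dusp7*, with a log2 fold change of -1.04, *Spred3* (-0.42) and *Dusp8* (0.38). The call of *Dusp9* was lost without any 1 of 5 of the 6 vehicle libraries (adjusted p from 0.0521 to 0.0826).

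Of the 18 genes of the ERK cascade itself, from adaptors to kinases, 4 rose and 1 fell with PTH in WT cells, and 2 rose and 1 fell in Y428F cells, where 13.4% and 12.4% of all genes were called. Their median log2 fold change was 0.08 in both lines. The scaffold gene *Ksr1* fell in both, from 23.3 ± 2.24 to 16.7 ± 1.42 CPM in WT cells (log2 fold change -0.48, adjusted p = 0.00243) and from 20.7 ± 2.19 to 13.7 ± 0.579 CPM in Y428F cells (log2 fold change -0.59, adjusted p = 0.000485). The RAS gene *Nras* rose in both, by 0.36 and 0.25 on the log2 scale (adjusted p = 0.000183 and 0.00371). With vehicle 6 of the 18 genes were higher and 4 lower in Y428F cells, where 45.1% of all genes were called, with the adaptor gene *Shc1* furthest apart (log2 fold change -1.11).

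Among 13 tested genes of RAS regulators and other feedback inhibitors, 1 rose and 3 fell in WT cells, and 1 rose and 2 fell in Y428F cells (13.4% and 12.4% of all genes called), with medians of -0.02 in both. *Rasa2*, the gene of a RAS GTPase-activating protein, rose from 21.0 ± 1.91 to 36.9 ± 1.58 CPM in WT cells (log2 fold change 0.81, adjusted p = 1.37e-06) and from 16.3 ± 1.48 to 26.0 ± 0.997 CPM in Y428F cells (log2 fold change 0.67, adjusted p = 3.36e-05). *Dab2ip*, which encodes another such protein, fell by 0.38 and 0.41 on the log2 scale (log2 fold changes -0.38 and -0.41, adjusted p = 8.95e-05 and 7.76e-05). *Lrig1*, a gene of an inhibitor of EGF receptors, fell in Y428F cells (log2 fold change -0.34, adjusted p = 0.00898, against -0.13 and 0.321 in WT cells), a call that was lost without the first vehicle library of Y428F cells (adjusted p = 0.0647). *Errfi1*, another gene of an EGF receptor inhibitor, stood at a log2 fold change of -0.45 for WT cells (adjusted p = 0.0181) with groups that overlapped, against -0.06 for Y428F cells (adjusted p = 0.859), and lost its call without the second or the third vehicle library (adjusted p = 0.153 and 0.0684), without the second or the third PTH library of WT cells (adjusted p = 0.0519 and 0.0715), with DESeq2's Wald test (adjusted p = 0.0593) and in the fit of the 6 WT libraries alone (adjusted p = 0.0551). None of the 13 was called for the difference in PTH response between the lines (0.413% of all genes called). Between the lines with vehicle, 3 of the 13 were higher and 7 lower in Y428F cells (45.1% of all genes called), with log2 fold changes of -1.96 for *Errfi1*, -1.69 for *Lrig1* and -0.74 for *Dab2ip*.

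Genes that ERK signaling is known to induce moved in both directions. Of 14 such genes, 4 rose and 2 fell with PTH in WT cells, and 5 rose and 1 fell in Y428F cells (13.4% and 12.4% of all genes called), with medians of 0.03 and 0.08. *Fosl1*, an AP-1 transcription factor gene, rose from 13.1 ± 3.41 to 22.3 ± 4.78 CPM in WT cells (log2 fold change 0.77, adjusted p = 0.00177) and from 14.4 ± 1.22 to 28.6 ± 1.55 CPM in Y428F cells (log2 fold change 0.99, adjusted p = 0.00014). The receptor gene *Epha4* rose by 0.74 and 1.16 on the log2 scale (adjusted p = 0.00419 and 0.00057) and *Myc* by 0.64 in WT and 0.25 in Y428F cells (adjusted p = 9.25e-06 and 0.0348). The latter call of *Myc* was lost without the first or the second vehicle library or the second PTH library of Y428F cells (adjusted p = 0.0968, 0.161 and 0.175) and with library totals alone (adjusted p = 0.0644). The ERK target *Egr1* had log2 fold changes of -0.29 and 0.39 (adjusted p = 0.142 and 0.0745). It passed the limit in both lines without the first vehicle library of WT cells (adjusted p = 0.00718 and 0.0173), and in Y428F cells with no filter on low counts (adjusted p = 0.0251) and in the fit of the Y428F libraries alone (adjusted p = 0.0296). It had a log2 fold change of -1.25 between the lines with vehicle (adjusted p = 9.14e-08). For the difference in PTH response between the lines, 1 of the 14 was called, *Ier3*, which is given below (0.413% of all genes called). With vehicle 7 of the 14 were higher and 3 lower in Y428F cells (45.1% of all genes called), with *Ccnd1*, the cyclin D1 gene, at 0.93 and *Epha4* at -1.48.

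Of 10 tested p38 and JNK pathway genes, 3 rose and 1 fell in each line (13.4% of all genes called in WT and 12.4% in Y428F cells), with medians of 0.18 in WT and 0.03 in Y428F cells. *Map2k3*, a p38 kinase kinase gene, rose by 0.39 in WT and 0.50 in Y428F cells on the log2 scale (adjusted p = 3.13e-05 and 1.49e-06), and *Map2k4*, which acts on JNK and p38, rose by 0.49 in WT and 0.28 in Y428F cells (adjusted p = 1.37e-05 and 0.00345). *Map2k6*, the other main p38 kinase kinase gene, had log2 fold changes of -0.67 in WT cells (adjusted p = 0.000579) and -0.41 in Y428F cells (adjusted p = 0.0233). The latter call was lost without the second or the third vehicle library (adjusted p = 0.109 and 0.0514) or any 1 of the PTH libraries of Y428F cells (adjusted p = 0.0763, 0.0556 and 0.0529). *Mapk8*, a JNK gene, had log2 fold changes of 0.13 in WT cells (adjusted p = 0.295) and 0.28 in Y428F cells (adjusted p = 0.0145), with the call lost without the first vehicle library or the first or the third PTH library of that line (adjusted p = 0.0712, 0.0502 and 0.0505). None of these 10 pathway genes was called for the difference in PTH response between the lines (0.413% of all genes called). With vehicle 5 of the 10 were higher and 2 lower in Y428F cells (45.1% of all genes called), with the p38 genes *Mapk11* and *Mapk12* at 0.72 and -1.26 and *Map2k4* at 0.32.

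**Figure D5:**
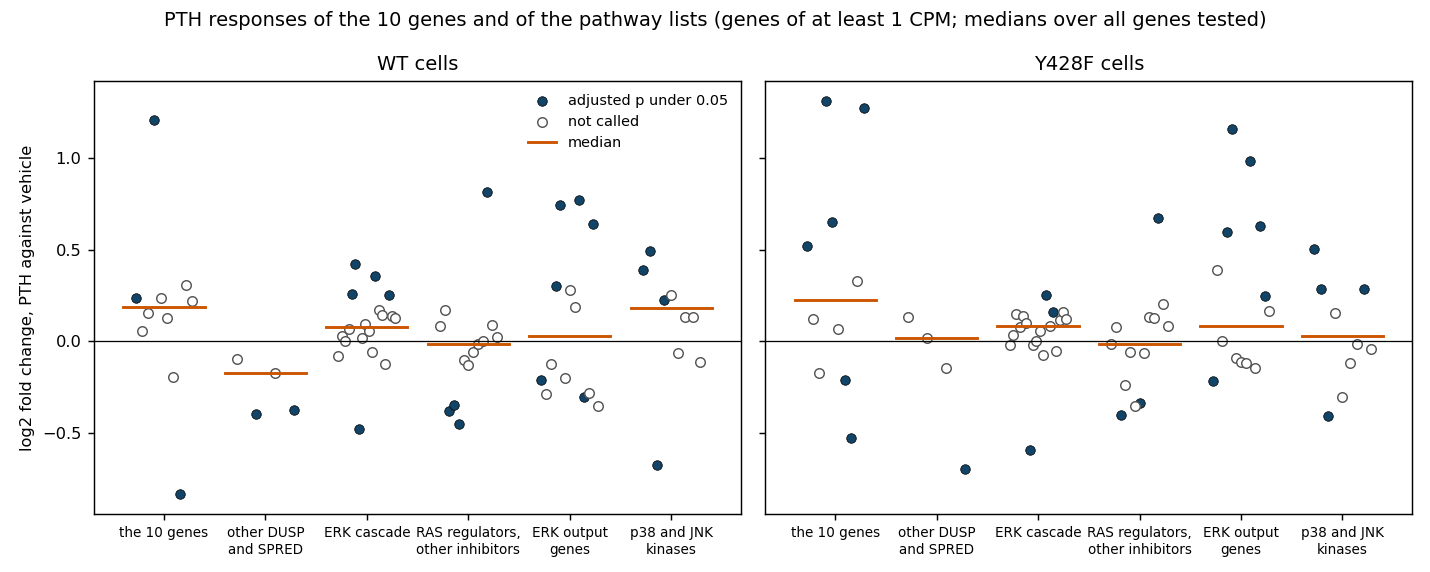
Log2 fold change with PTH for the 10 genes and for the 5 pathway lists, with WT cells on the left and Y428F cells on the right. Filled points had an adjusted p under 0.05, genes with a mean under 1 CPM are not drawn, and lines are medians over all tested genes of a list. The medians lie between -0.18 and 0.23, and each list but that of *Dusp7* and its relatives has called genes on both sides of 0.

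The genes most like *Dusp1*, *Dusp6* and *Spry4* across the 12 libraries were sought by the root mean square difference of centred log2 CPM, over the 9104 genes that averaged 10 CPM or more. For *Dusp1* they were *Rmdn2* (0.0867), *Lyset* (0.105) and *Phf13* (0.105), where the deviation of *Dusp1* from its own mean was 0.395. For *Dusp6*, with a deviation of 0.278, they were *Slf2* (0.101), *Itprip* (0.111) and *Stambpl1* (0.128). For *Spry4*, with a deviation of 1.91, they were *Ifi35* (0.529), *Sfrp2* (0.552) and *Lef1* (0.568). None of these 9 genes was among the 10 or on the pathway lists. *Dusp4*, *Dusp10*, *Spry2* and *Spry4*, which were under 10 CPM in every library, could not be found by this search.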

How the data were processed

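Bulk RNA-Seq counts of 12 libraries were analysed. The authors mapped reads with STAR 2.7.10b to GRCm39 with the GENCODE vM31 basic annotation, and deposited RSEM expected counts of each gene, not scaled for depth or length. Library totals of 17127897 to 19057319 counts limit precision for genes with few counts. Reads were not analysed here. Expected counts were rounded, and models were fitted with edgeR 4.0.16 in R 4.3.3 (TMM, quasi-likelihood, 4 group means, genes with at least 10 counts in total, Benjamini-Hochberg), with an adjusted p limit of 0.05. Identifiers were matched to GENCODE vM39 (56236 of 56980), which gave positions and canonical transcript lengths. Alternatives were DESeq2 1.42.0, other normalizations and filters, a replicate block, other limits, fits of 6 libraries, and each library left out.

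The 10 genes and the gene lists were chosen with earlier results of these data known, so they give no independent support. All 10 genes were named, and from each list the 3 called genes of at least 1 CPM with the largest log2 fold change in each PTH response, in the line difference with vehicle and in the difference in response. Some genes that this rule names are not reported here. *Egr1* and other genes of a comparison they were not named for are given as values. The genes held by 1 WT library alone were chosen after their values were seen. Most alike genes were the 3 nearest. The fit was tested on simulated data. Pairs of replicates differed beyond sampling noise. The chi-square per degree of freedom was lowest, at 2.94, for the first and second PTH libraries of WT cells. It was highest, at 15.2, for the first and second vehicle libraries of WT cells.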

Additional observations from a re-analysis of the deposited data

Results flagged for a closer look

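*Ier3*, an immediate-early gene that ERK signaling induces, was marked because its PTH responses in the lines differed in a test of the difference itself. It was at 15.1, 12.7 and 14.0 CPM with vehicle and at 14.3, 9.66 and 10.4 CPM with PTH in WT cells, and these groups overlapped. In Y428F cells it was at 19.0, 19.4 and 18.5 CPM with vehicle and at 32.6, 28.2 and 27.0 CPM with PTH, with every PTH library higher. The log2 fold change was -0.28 in WT cells (adjusted p = 0.164; -0.48 and adjusted p = 0.0152 without the first PTH library) and 0.63 in Y428F cells (adjusted p = 0.000772), and the difference was 0.91 (SE 0.17, adjusted p = 0.0169, edgeR). The call was lost without the second PTH library of WT cells (difference 0.81, adjusted p = 0.0578) and without the first, the second or the third vehicle library of Y428F cells (adjusted p = 0.0616, 0.0581 and 0.0621). The groups held 3 libraries each, so no test for single deviating libraries within a group was made.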

How the results depend on the processing

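With a stricter rule (adjusted p below 0.01, log2 fold change of more than 0.3), 1073, 942 and 22 genes were called for the PTH response in WT cells, in Y428F cells and for the difference in response, and 2 of the 10 genes for the response in WT cells, 3 for that in Y428F cells and 3 for the line difference with vehicle, where 5492 of 17691 genes in all were called. DESeq2's Wald test called 123 genes for the difference in response and a fit with no filter on low counts called 216. By library totals alone 4 uncalled values crossed 0: *Dusp10* to -0.00055 for PTH in WT cells, and *Dusp6* to 0.0019, *Dusp10* to 0.0054 and *Spred1* to 0.028 for the line difference with vehicle. That scaling moved the median of all genes for PTH in WT cells from -0.02 to -0.07, and the calls between the lines from 3966 higher and 4020 lower to 4565 and 3552 with vehicle, and from 4026 and 4067 to 4761 and 3538 with PTH. Each library left out in turn gave 1591 to 2611 genes and 2 to 4 of the 10 called for PTH in WT cells, 1435 to 2515 and 3 to 6 in Y428F cells, 7144 to 8158 and 4 to 5 for the lines with vehicle, 7358 to 8322 and 6 to 7 with PTH, and 24 to 89 and 0 of the 10 for the difference in response. Uncalled values that changed sign without a library ranged as follows: for PTH in WT cells *Dusp4* from -0.36 to 0.41 and *Dusp10* from -0.22 to 0.26, for the lines with vehicle *Dusp6* from -0.11 to 0.030, *Dusp10* from -0.14 to 0.016 and *Spred1* from -0.081 to 0.010, for the lines with PTH *Dusp10* from -0.18 to 0.30, and for the difference in response *Dusp4* from -0.62 to 0.19, *Dusp10* from -0.13 to 0.35, *Spry2* from -0.055 to 0.14 and *Spred2* from -0.057 to 0.035. With the replicate number as a block, 2430, 2273, 7976, 8027 and 76 genes were called in the 5 comparisons, and the calls of *Spred2* for PTH in Y428F cells and of *Dusp5* between the lines with vehicle were lost (adjusted p = 0.0506 and 0.0549), with no other call of a gene reported here changed. The labels do not say what a replicate number shares, and the residuals of same-numbered libraries had a mean correlation of 0.0064 over 18 pairs (range -0.11 to 0.185, 1 pair above 0.1), so the numbers were not taken as pairing. *Spry4* was not tested where at least 10 counts were required in every library. The cause of these changes was not tested.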
